A study of Homo sapiens with 12 samples.

Results

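The regions described here are stretches of early DNA synthesis that were called in both control lists of U2OS-MycER cells, without and with OHT, and in neither list of cells in which CDK12 was silenced. To find them, the regions of the 4 deposited lists on autosomes were merged wherever they overlapped or touched, which gave 4886 merged places. Of the 3201 places that held a region of both control lists, 124 held no region of either silenced list. These 124 places contained 251 rows of the control lists, 124 of shNT and 127 of shNT + OHT, out of 8352 autosomal rows in these lists and 17827 in all 4. They are called lost places below, which states only that no region was called there after silencing. The signal that remained at a lost place was not measured, and absence from a list cannot be told apart from a weaker signal under the threshold of that list.

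The cells were a U2OS line, from a human osteosarcoma, that expresses the MycER chimera, in which Myc is joined to a part of the estrogen receptor and becomes active when OHT (4-hydroxytamoxifen) binds. They carried a short hairpin RNA, induced with doxycycline at 1 µg/mL, that had either no target (shNT) or CDK12 as its target (shCDK12), and each was studied without OHT and with OHT at 300 nM for 40 h. All 4 groups were arrested with nocodazole (100 ng/mL, 8 h) and released for 24 h into EdU (25 µM) and hydroxyurea (2 mM), and EdU-labelled DNA was sequenced (EdU-HU-seq). The 12 samples were 3 per group, and the deposited lists pool them into 1 list per group. No difference below therefore has a replicate check, no test was run, and all intervals cover counting error only. A single cell line was studied, Myc activity came from a fusion protein, and the lists hold no measure of how far CDK12 fell. Autosomal regions held, on average, 39.1 reads per kb without and 102.6 with OHT in the control lists, and 29.2 and 52.3 in the silenced lists. Such reads do not give the sequencing depth, and they were not scaled.

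In S phase, DNA synthesis starts at many origins in a set order, with gene-rich open chromatin tending to replicate first. EdU, a thymidine analogue, marks newly made DNA, and hydroxyurea depletes nucleotides, so that forks move little and the label stays close to the origins that fire early. CDK12 is a kinase that phosphorylates the tail of RNA polymerase II and is needed for full-length transcription of long genes, many of them in DNA repair. Active Myc raises transcription and pushes cells into S phase.

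Lost places were 3.87% of the places shared by both control lists (Wilson interval 3.26 to 4.60). Because they were narrow, they made up 6.36 Mb of 521 Mb, or 1.22% of the length. The mirror set, found in both silenced lists and in neither control list, held 217 places, which was 6.12% of the places shared by the silenced lists (5.38 to 6.96). Control places missing from 1 silenced list only were 60 (1.87%) for shCDK12 and 85 (2.66%) for shCDK12 + OHT. Each number was smaller than that of lost places, but together they exceeded it. Silencing was thus accompanied by fewer lost places than places found only after it, but this order was that of the lists as deposited. When the same minimum score was set for the 4 lists, 188 places were lost against 79 in the mirror set, and when the lists were cut to equal length (the 3796 regions with the highest score), 214 against 128. Of the 124 lost places, 116 were still lost with the shared minimum and 85 with lists of equal length.

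Lost places were weak regions in both control lists. The values in this paragraph and the next describe the places that the rule selected on presence in the 4 lists. In shNT, the lost rows held 358 to 2194 reads, with a median of 674. Their density ranged from 10.5 to 24.3 reads per kb with a median of 15.9, against 22.4 over all autosomal shNT rows. By score, the caller's own value for a region, 123 of the 124 rows (99.2%) lay below the median of the list, and the median percentile was 15.8. In shNT + OHT, the lost rows held 522 to 4734 reads, with a median of 1495. Their density was 27.5 to 67.7 reads per kb with a median of 38.4, against 52.5 over that list, and 122 of 127 rows (96.1%) had a score below the list's median. All lost rows together took 0.544% of the autosomal reads inside regions in shNT and 0.423% in shNT + OHT. They were, however, not the weakest regions without exception, because in each list some rows reached the middle of the score range.

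Lost rows were narrower than the typical region but not among the narrowest. In shNT they spanned 17.2 to 124 kb with a median of 43.6 kb, against 74.8 kb over the list. In shNT + OHT they spanned 15.2 to 94.8 kb with a median of 38.4 kb, against 61.2 kb. Among rows whose width lay between the quartiles of the lost rows' width, the median in shNT was 15.0 reads per kb in 62 lost rows and 17.3 in 672 rows of places retained in all 4 lists. In shNT + OHT the same medians were 38.3 in 64 lost rows and 44.7 in 595 retained rows.

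**Figure D1:**
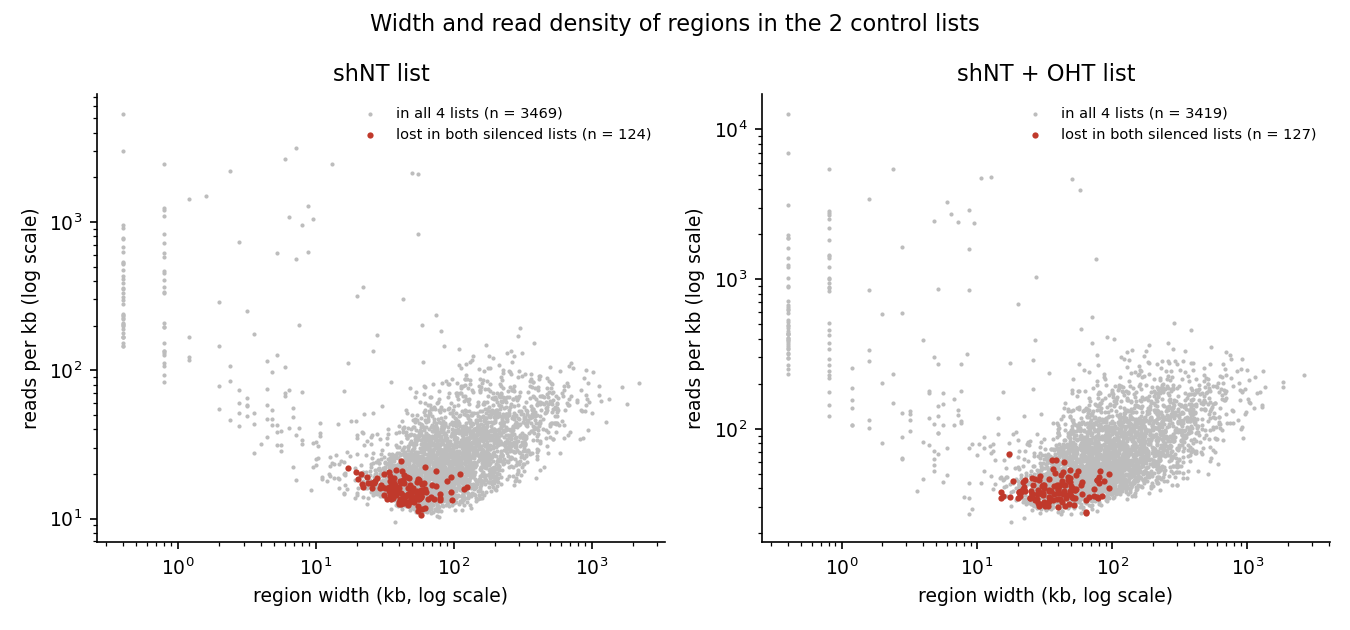
Each point is a region of the shNT list (left) or the shNT + OHT list (right), with its width in kb against its reads per kb, both on log axes. The lost rows (red, 124 and 127) gather at the narrow, low-density edge of the cloud of broad retained regions (grey), with widths of 17.2 to 124 kb in shNT, and none is among the dense regions of a few kb or less.

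The share of places that were lost fell with score and had a maximum at intermediate width of the merged place. When the 3201 control places were ranked by shNT score and divided into deciles, 43 of 321 places (13.4%) of the lowest decile were lost. The second decile had 47 of 320 (14.7%) and the third 25 of 320 (7.81%). The 3 lowest deciles thus held 115 of the 124 lost places, the next ones held 4 and 5, and the 5 highest deciles held 0. By width of the merged place, the share was highest at 20 to 30 kb, where 13 of 66 places (19.7%) were lost, and it was 16.1% at 30 to 40 kb and 15.4% at 40 to 50 kb. None of 123 places up to 10 kb wide and none of 1090 over 150 kb wide was lost. A merged place spans the regions of all lists in it, so silenced regions could widen only places that were not lost. The median merged width was 48 kb at lost and 109.6 kb at retained places, against 43.6 and 80 kb for their shNT rows. How much of the pattern by width comes from this was not measured. Among places in the 3 lowest deciles of score that were 20 to 60 kb wide, 93 of 493 (18.9%) were lost. Most places of similar score and merged width thus still held a region of at least 1 silenced list.

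**Figure D2:**
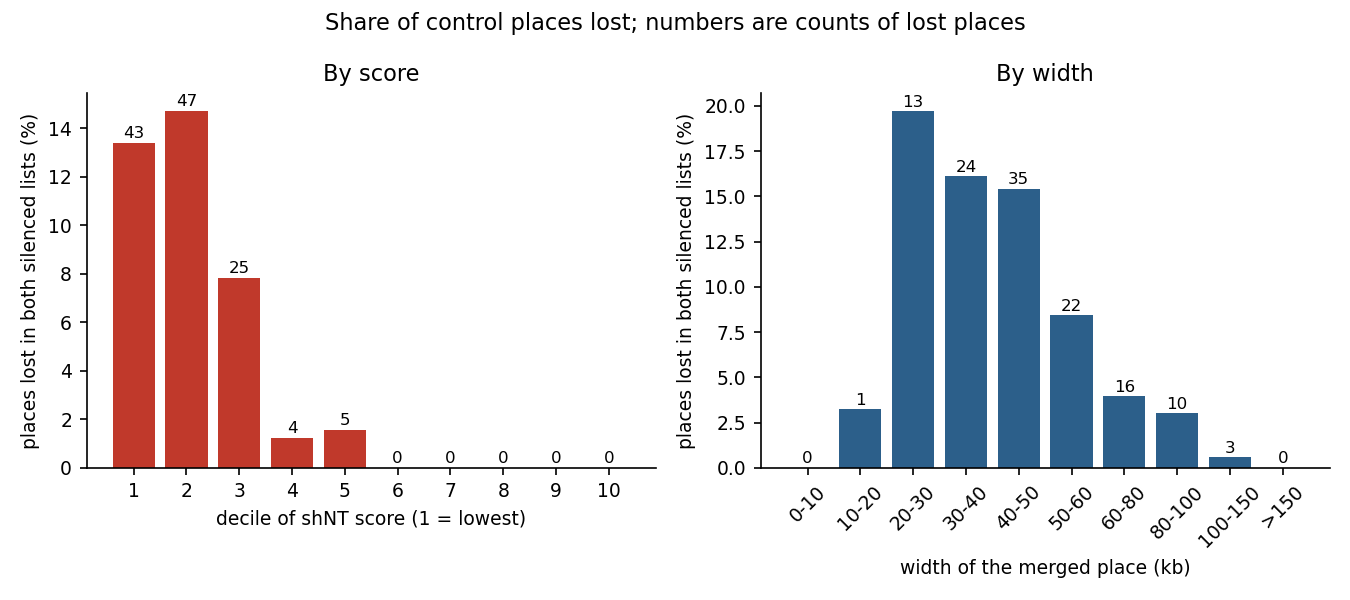
Bars give the share (%) of places held by both control lists that were lost in both silenced lists, by decile of shNT score (left) and by width of the merged place in kb (right), with the number of lost places above each bar. The share lies at 13.4% and 14.7% in the lowest deciles of score and at 0 in the 5 highest, and it peaks at 19.7% for widths of 20 to 30 kb.

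The densities of lost rows were set beside those of the silenced lists, as a description. In places retained in all 4 lists, the median ratio of density after silencing to that in the control list was 0.828 without OHT and 0.606 with OHT. Scaled by the first factor, the lost rows of shNT would have 8.71 to 20.1 reads per kb, with a median of 13.2. Among the 3412 shCDK12 rows in the width range of the lost rows, 1178 (34.5%) had a density below 13.2, and the lowest had 8.59, which was under the scaled value of all 124 lost rows. With OHT, the scaled median was 23.3 reads per kb, and 544 of 2738 rows of shCDK12 + OHT (19.9%) lay below it. There the lowest row had 17.2 reads per kb, under the scaled value of 125 of the 127 lost rows. These lowest rows were taken over the whole width range and give no calling limit for a row of a given width. The scaling rests on places that were called after silencing. Retained places near lost ones had lower ratios than the rest, whereas those of low shNT score had higher ratios of summed reads (both given below). The scaled values therefore do not tell what density the lost places had after silencing. The calling threshold of the lists is not given in the sources used here, but their lowest scores differed, with 146 for shNT against 66.1 for shCDK12, and with 99.9 for shNT + OHT against 137 for shCDK12 + OHT.

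Several lost places stood out by width. The widest was chr1:30102001-30226000 (hg19, as are all positions here), which spanned 124 kb. In shNT it held 2034 reads (exact Poisson interval 1947 to 2124), and in shNT + OHT 3816 reads over 80.4 kb. The nearest shCDK12 region lay 36.8 kb away, and the nearest region of shCDK12 + OHT 516.4 kb away, so that a long stretch around it was without a call in the silenced cells with OHT. On chromosome 3, the place chr3:31038801-31157600 held 1874 reads in shNT, and 2795 in shNT + OHT in 2 separate rows. The third in width was chr9:4210001-4320400 (110.4 kb), which also had the highest shNT score of all lost places, at percentile 52.3 of the list. It held 2194 reads in shNT, at 19.9 reads per kb, and 3781 with OHT, and no silenced region lay within 417.2 kb of it.

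The other 7 of the 10 widest places spanned 82 to 98 kb and held 975 to 1825 reads in shNT. Among them, chr10:80866801-80963200 had 1825 reads in shNT and 4734 in shNT + OHT, the highest count with OHT of any lost place. It lay only 21.2 kb from the next region of shCDK12 + OHT. By contrast, chr4:157848401-157932400 held 975 and 2972 reads and lay 1462 kb from the nearest silenced region. The remaining 5 were chr13:20912401-21010400, chr6:46877201-46974800, chr2:217900401-217990800, chr20:56144001-56230800 and chr9:16002801-16084800, with 1774 to 3900 reads with OHT. By shNT score, chr17:64483601-64564400 and chr6:44609601-44671200 followed those already described, with 1553 and 1375 reads in shNT and 4228 and 1782 with OHT. Both had more than 20 reads per kb in shNT (21.0 and 22.3), close to the median of 22.4 over the list.

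At the limit of the rule, the lost places nearest to a silenced region were chr17:1348001-1426800 and chr9:118678401-118740800, both with a gap of 6.4 kb. Then came chr2:102116401-102152400 and chr6:142685201-142711600, with a gap of 7.6 kb each, and chr1:228756401-228773600 with 8.8 kb. The last of these was the narrowest lost place (17.2 kb) and the densest one with OHT, at 67.7 reads per kb and score percentile 74.8. Just outside the rule were places of 0.4 to 0.8 kb, a width that no lost place had. Of the places whose shNT region was at least as wide as the narrowest lost row, chr20:55556401-55666800 missed the rule by least. It spanned 110.4 kb in the control lists, with 1301 reads in shNT and 2177 with OHT, and a single shCDK12 region of 9.2 kb with 134 reads lay inside it. Next were chr18:43663201-43696000, chr19:8737201-8763200, chr1:249217201-249240800 and chr4:182996001-183030000, where 10.4 to 15.6 kb of silenced regions lay inside places of 23.6 to 34 kb.

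The comparison of the control lists asked how lost places behaved when MycER was activated in cells with CDK12. Reads rose less with OHT at lost places than elsewhere. The median log2 ratio of summed reads, shNT + OHT over shNT, was 1.15 at the 124 lost places (quartiles 0.78 to 1.44) and 1.48 at the other 3077 control places (1.28 to 1.65), a difference of -0.33. Since reads were not scaled to depth, only this difference is read and not the ratios themselves. The 846 places of the 3 lowest deciles of shNT score that were not lost had a median of 1.48. These were chosen by score in shNT only, the denominator of the ratio, whereas lost rows were also low with OHT (median score percentile 24.0). Whether low score in both lists goes with a lower ratio was not tested. With lists of equal length the difference was -0.21. OHT was not the contrast of the rule, but absence from shCDK12 + OHT was part of it: the ratio was 1.01 at the 85 places absent from that list only and 1.57 at the 60 absent from shCDK12 only.

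Both density and length contributed to the smaller ratio. Per kb, the median log2 ratio was 1.30 at lost places and 1.45 elsewhere. The log2 ratio of covered length was -0.14 at lost places and 0.00 elsewhere. Of the 121 lost places with 1 row in each control list, 88 (72.7%) were narrower with OHT, 32 (26.4%) were wider and 1 was equal. Among retained places of this kind, 47.1% were narrower and 46.2% wider, and among the low-scoring places that were not lost, 47.4% were narrower. The rows of both lists overlapped less exactly at lost places, with a median of 80.5% of their joint length shared (quartiles 68.8 to 86.3). This was 91.3% at retained places and 82.6% at low-scoring places that were not lost. A shorter covered length with OHT was not particular to the lost places. At the 85 places absent from shCDK12 + OHT only, it was shorter at 70 and longer at 8, with a median log2 ratio of -0.21. At the 60 places absent from shCDK12 only, it was shorter at 23 and longer at 36, with a median of 0.09.

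The ratio varied widely between lost places. It was highest at chr16:31426401-31504400, where 448 reads over 31.2 kb in shNT became 2707 reads over 78 kb with OHT (log2 ratio 2.60, counting interval 2.45 to 2.74). At chr11:1212801-1293200 reads went from 618 to 3497 (2.50), and at chr3:115036001-115074400 from 494 to 2367 (2.26). In these 3 places the shNT region was among the lowest in score, at percentiles 0.211 to 5.19. At the other end, chr3:190056001-190106800 went from 686 reads over 50.8 kb to 557 over 15.6 kb (-0.30, interval -0.46 to -0.14). Only this place and chr6:72078401-72126800, which went from 633 to 578 reads (-0.13, -0.29 to 0.03), had fewer unscaled reads with OHT. The next lowest, chr14:85890801-85920400, held 496 and 522 reads (0.07, -0.10 to 0.25), and its nearest neighbour of any list lay 2317 kb away. In all 3 places the region with OHT was 15.2 to 15.6 kb wide. Density in unscaled reads was higher there than in shNT, as it was at all 124 lost places and at 3069 of the other 3077 control places.

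All 22 autosomes held at least 1 lost place, but not in equal shares. Chromosome 3 had 14, chromosome 6 had 13, chromosome 12 had 11, chromosome 7 had 10 and chromosome 2 had 9, together 57 or 46.0% of the total. As a share of the control places on a chromosome, chromosome 6 was highest, with 13 of 132 (9.85%, Wilson interval 5.85 to 16.1), followed by chromosome 13 with 4 of 48 (8.33%, 3.29 to 19.6). Chromosome 20, with 1 of 100 (1.00%), and chromosome 1, with 4 of 342 (1.17%, 0.456 to 2.97), were lowest. The intervals of chromosomes 6 and 1 did not overlap, whereas those of most neighbours in this order did. Both chromosomes were picked from the ends of the order, and the intervals treat places as independent, although some lost places formed runs (given below). Across the 22 autosomes the share lost went down with the median score percentile of the chromosome's control places (Pearson r -0.75, Spearman rho -0.79; a description, since all points come from the same 4 lists). Among places no higher in score than the highest lost place, 15.5% were lost on chromosome 6 and 2.70% on chromosome 1.

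**Figure D3:**
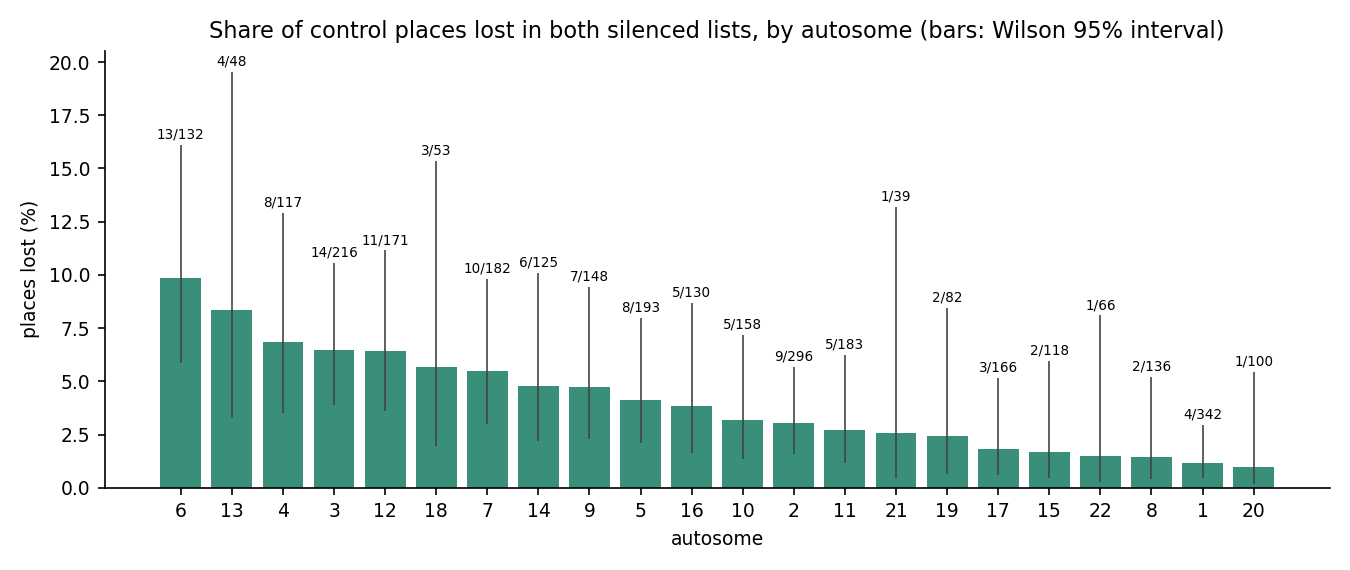
Bars show for each autosome the share (%) of places held by both control lists that were lost in both silenced lists, with the Wilson 95% interval as a line and the counts above it. Chromosome 6 (13 of 132) is highest and chromosome 20 (1 of 100) lowest, and the wide intervals of most chromosomes overlap.

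Lost places tended to stand alone. The median gap from a lost place to the nearest other place of any list was 134 kb (quartiles 50 to 434). It was 36.8 kb for retained places, 42.8 kb for places found only after silencing, and 46.0 kb for places of the 3 lowest deciles of score that were not lost. The rule bears on these gaps, because a control region that overlaps or touches a silenced region is not lost. This can happen more easily where regions are dense, and its part in the difference was not measured. For 13 lost places nothing was called within 1 Mb in any list. To the nearest region of a silenced list the median gap was 198 kb, and only 5 lost places lay within 10 kb of one. Counted separately, it was 292 kb to shCDK12 and 253 kb to shCDK12 + OHT. Most lost places thus lay more than 10 kb from any region of a silenced list.

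**Figure D4:**
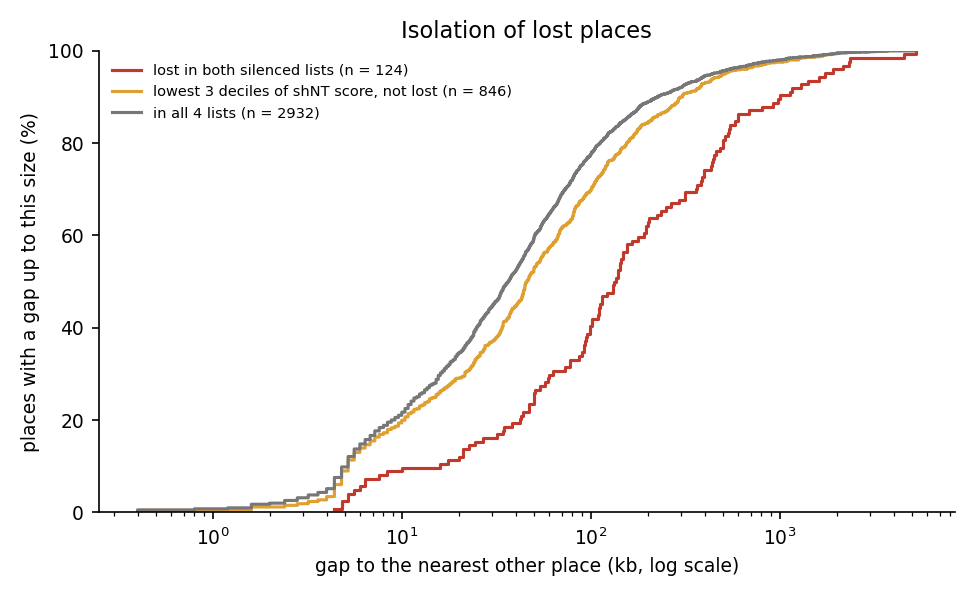
Lines give the cumulative share (%) of places against the gap in kb (log axis) to the nearest other place of any list, for lost places (red, n = 124), low-scoring places that were not lost (orange, n = 846) and places in all 4 lists (grey, n = 2932). The red line runs to the right of the others, with a median of 134 kb against 46.0 and 36.8 kb.

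The places next to lost ones were mostly not lost themselves, but more of them were than among all places. Of the 247 next places on either side, 26 (10.5%) were lost, against 2.54% of all places. In this count, adjacent lost places enter from both sides. All places also include those that could not be lost. The share was 3.87% of places with both control lists, and 12.0% in their 3 lowest deciles of shNT score. Retained places made up 45.3% of the neighbours, although 2932 of all 4886 places were retained, and places found only after silencing 2.02%, against 4.44%. Adjacency of like places was not particular to lost ones. Of the 432 next places of those found only after silencing, 38 (8.80%) were of the same kind, against 4.44% of all places. Altogether 25 lost places formed 12 runs with no other place between them. The only run of 3 was on chromosome 12, at chr12:89529201-89791200, a span of 262 kb. The closest pair spanned 82 kb at chr7:32128001-32210000, followed by pairs at chr4:177805601-177947600 (142 kb) and chr5:141716001-141867600 (151.6 kb). The widest place of chromosome 4 and the highest-scoring place of chromosome 9 described above each belonged to such a pair, at chr4:157667601-157932400 and chr9:3840401-4320400.

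The surroundings of lost places were then compared through the retained places nearest to them. These hold regions in all 4 lists and were not picked by the rule, although the lists and the contrast are the ones the rule used. The 124 lost places had 110 different nearest retained places, at a median distance of 393 kb. Without OHT, the log2 ratio of summed reads, shCDK12 over shNT, had a median of -0.62 in these neighbours (quartiles -1.13 to -0.27) and of -0.32 in all 2932 retained places (-0.63 to -0.02), a difference of -0.30. Of the 110 neighbours, 80 (72.7%) lay below the median of all retained places, where 50% of those places lie by construction. With OHT, the ratio of shCDK12 + OHT over shNT + OHT was -0.89 in the neighbours and -0.66 in all retained places, a difference of -0.23, and 77 neighbours (70.0%) lay below the median. Both comparisons thus pointed the same way, and the quartiles of neighbours and of all retained places overlapped in both.

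The lower ratio of the neighbours had parts of density and of length. Per kb, the difference without OHT was -0.14 (-0.41 in neighbours, -0.27 in all), and with OHT -0.16. Covered length fell more in the neighbours without OHT, with a median log2 ratio of -0.21 against -0.04, whereas with OHT it was -0.06 against 0.02. Set against retained places of the same chromosome, the difference without OHT was -0.19, and with merging of regions up to 50 kb apart it was also -0.19. The ratio of summed reads in retained places itself fell with shNT score. From the lowest to the highest of 5 classes of score, its median went from -0.06 to -0.46 without OHT and from -0.13 to -0.99 with OHT. In each of the 5 classes the neighbours lay below the retained places of that class, with differences of -0.54 to -0.19 without OHT and -0.55 to -0.19 with OHT. The neighbours of places missing from 1 silenced list shared part of this. For places absent from shCDK12 + OHT only, 60 of 79 neighbours (75.9%) lay below the median of all retained places without OHT and 48 (60.8%) with OHT, and the differences were -0.23 and -0.16. For places absent from shCDK12 only, 34 of 57 neighbours (59.6%) lay below it without OHT and 24 (42.1%) with OHT, with differences of -0.18 and 0.13. Neighbours of places found only after silencing differed in the other direction, by 0.06 without OHT and 0.20 with OHT. Without OHT this was small, with 89 of 196 neighbours (45.4%) below the median of all retained places and a difference of 0.01 per kb. With OHT, 73 (37.2%) lay below it, and the difference per kb was 0.07. As a further reference, the nearest neighbours of retained places that scored no higher than the highest lost place had medians of -0.33 and -0.63, close to those of all retained places. This reference was not matched to the lost places. It reached up to percentile 52.3 of shNT score, against a median of 15.8 for lost rows, and its neighbours lay at a median of 83.6 kb, against 393 kb. For OHT itself, the neighbours of lost places were near the rest, with 1.44 against 1.49 in shNT cells and 1.11 against 1.13 in shCDK12 cells.

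The ratio changed in steps with distance. Retained places within 100 kb of a lost place (n = 34) had a median log2 ratio of -0.63 without OHT, those at 100 to 300 kb (n = 48) of -0.51, and those at 300 to 1000 kb (n = 164) of -0.49. At 1 to 3 Mb (n = 406) it was -0.34, at 3 to 10 Mb (n = 933) -0.30, and beyond 10 Mb (n = 1347) -0.29. With OHT, the medians went from -0.90 within 100 kb to -0.72 at 1 to 3 Mb and -0.63 beyond 10 Mb. Around places found only after silencing the order was turned, with -0.16 within 100 kb (n = 147) and -0.40 beyond 10 Mb (n = 845) without OHT, and -0.38 and -0.78 with OHT. Retained places thus held fewer reads after silencing, relative to the rest, within about 1 Mb of lost places and more reads close to places found only after silencing, with a wide spread in each distance class.

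**Figure D5:**
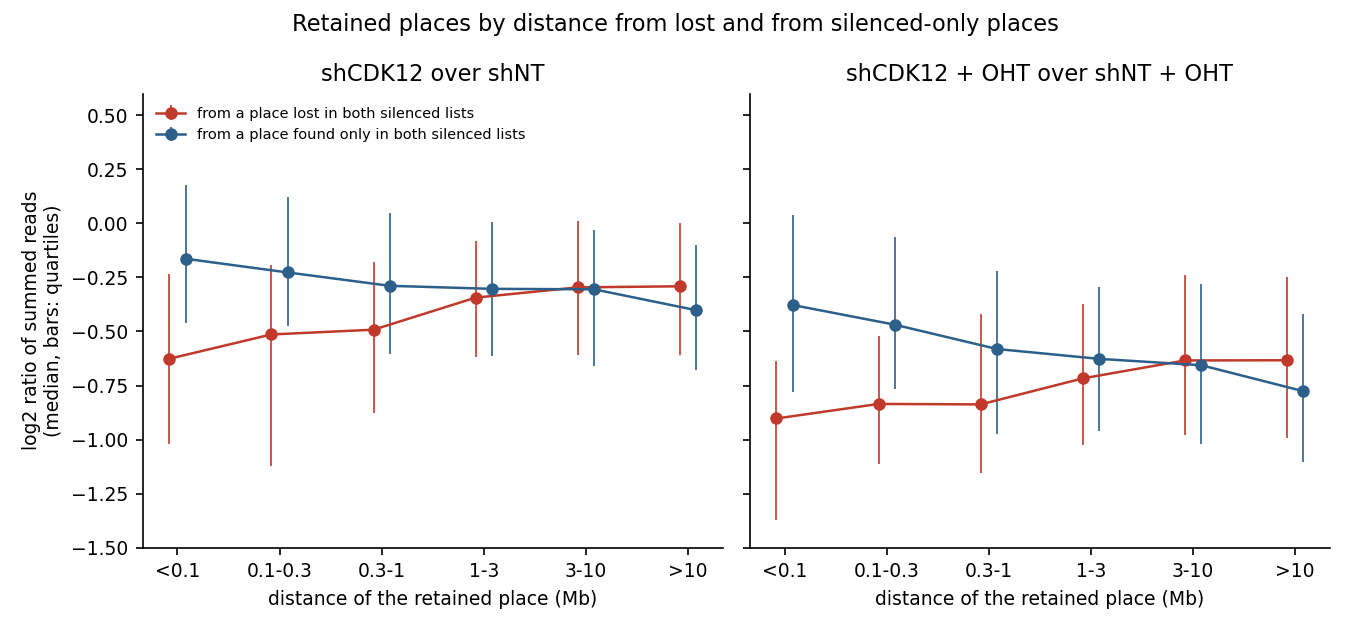
Points are medians, and lines quartiles, of the log2 ratio of summed, unscaled reads in retained places, shCDK12 over shNT (left) and the same with OHT (right), by distance in Mb from the nearest lost place (red) or the nearest place found only in both silenced lists (blue). The red medians rise from -0.63 to -0.29 without OHT with distance, the blue medians fall from -0.16 to -0.40, and the quartiles overlap throughout.

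Single examples did not all follow the medians. Next to chr6:72078401-72126800, at 38.4 kb, the retained place chr6:72165201-72217600 held 1793 reads in shNT and 506 in shCDK12, and 3000 and 1024 with OHT. Near chr11:1212801-1293200, the retained place chr11:996801-1162800 went from 7670 reads to 2932 without OHT and from 22661 to 6275 with it. Both had much lower ratios than the median retained place. The nearest retained place of the widest lost place, chr1:29499201-29599200, went the other way, with 595 reads in shNT and 1442 in shCDK12, and with OHT it held 4322 and 4262.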

How the data were processed

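EdU-HU-seq of 12 samples (3 per group) was analysed from 4 region lists, 1 per group, which the authors made from merged replicates. The labels name BWA 0.6.2, SAMtools and SICER, and the builds hg19 and mm10, with no role or order. Control library, removal of duplicates, calling threshold and gap size are not given in the sources used here. The lists ran past the hg38 chromosome ends on 14 of 25 chromosomes (by over 400 bp), so positions are read as hg19. The reference at hand was hg38, and sequences and gene annotation were therefore not used here. Deposited values were a count of reads per region, summed over replicates and not scaled, and the authors' score per region, at most 1000 per 400 bp window. Whether scores of different lists share a scale is not stated. No gap inside a list was shorter than 4400 bp. The last base of each region was counted in, and positions are counted from 1.

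Regions on autosomes that overlapped by 1 bp or touched were merged. Reads, covered length and reads per kb were summed per place and list, and compared as log2 ratios without scaling. Score percentiles were taken inside each list. Because replicates were pooled, values are described without a test, with Wilson 95% intervals for shares and exact Poisson intervals for reads. The members, the comparisons and the rule for named places (widest, highest in score, highest and lowest OHT ratio, nearest to a silenced region, just outside the rule, runs) were chosen with earlier results of these data known. Alternatives covered list length, minimum score, merging, cover, width and chromosomes. Among simulated lists with planted places, 462 of 462 lost places were recovered. The simulation had no calling step, so this checks only that the merging and the rule ran as written. Work was done in Python 3.11.15 with pandas 2.3.3, numpy 2.4.6, scipy 1.17.1 and, for plots, matplotlib 3.10.9.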

Additional observations from a re-analysis of the deposited data

Results flagged for a closer look

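Chromosome X, which lies outside the autosomes described above, held 9 places lost in both silenced lists out of 59 places with both control lists (15.3%, Wilson interval 8.24 to 26.5). On autosomes the share was 3.87%. This is singled out because it is a signal in data that the comparisons did not use, apart from the alternative with chromosomes X and Y included. Control places on X had a median shNT score percentile of 37.7, lower than on any autosome except chromosome 13 (33.8). Among places no higher in score than the highest lost place, 23.7% were lost on X, against 15.5% on chromosome 6, the highest autosome. None of the 54 places with both silenced lists on chromosome X was absent from both control lists, which allows a share of up to 5.56%. The 9 places had shNT score percentiles of 1.45 to 33.9 and widths with a median of 42.4 kb. The cause was not tested.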

How the results depend on the processing

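Over 11 results and 87 values under alternatives, 13 moved and 0 turned sign. The other 74 lay within 1.5 times the count, or within the 95% interval of the median or share over regions, which is wide for the nearest retained places. Counts, shares, widths and percentiles cannot turn sign, so only the log2 read ratios could have done so. The order of lost places and places found only after silencing did turn, with the common minimum score and with lists of equal length. With the common minimum score (146, the highest of the 4 lists' lowest scores), lost places numbered 188 (5.93% of control places) and places found only after silencing 79 (2.64%). With each list limited to 3796 rows, they numbered 214 (6.95%) and 128 (4.38%), the median score percentile of lost rows was 19.3 in shNT and 30.8 in shNT + OHT, and the OHT read ratio differed by -0.21. Merging regions up to 50 kb apart gave 110 places found only after silencing (4.62%) and 95 lost places. These settings change which regions enter the lists or the merged places; no other cause was tested. The difference between nearest retained places and all retained places ranged over all alternatives from -0.35 to -0.14 without OHT and from -0.29 to -0.16 with OHT. Without OHT it shrank from -0.30 to -0.14 with reads per kb, and to -0.19 both against the same chromosome and with merging up to 50 kb apart. Of these alternatives, 5 (reads per kb, a limit of 1 Mb, 2 other references, without chromosome 6) were chosen after seeing the data.

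No paired analysis was possible because each list pools the replicates of its group, and for the same reason no replicate was left out. Reads inside regions do not give the sequencing depth.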
